A study of Mus musculus with 4 samples.

Results

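A set of 6 mouse genes that encode repressors of neuronal or non-neuronal fate, or their corepressors, was examined for BRG1/BRM islands: Rest, the corepressor genes Rcor1 and Rcor2, and the Myt1 family genes Myt1, Myt1l and St18. An island is a stretch of the genome in which reads from the immunoprecipitation (IP) exceeded those of a control library. The islands were chosen by their measured calls: every island in, or within 50 kb of, one of the 6 genes was taken, which gave 22 of the 20966 islands called after potassium chloride (KCl) and 0 of the 711 called in basal neurons. Because the calls chose the islands, their values are given as a description, with no test. The material was primary cortical neurons of wild-type mice, prepared from E16.5 embryos and harvested after 6 days in vitro, either at the basal level of KCl or after 1 h in 50 mM KCl. Cultures to be depolarized had received tetrodotoxin (1 µM), which blocks sodium channels, and APV (100 µM), which blocks NMDA receptors, on day 5; whether basal cultures received them is not given in the sources used here. Chromatin was precipitated with the J1 antibody, which recognizes both BRG1 and BRM, the alternative ATPases of BAF, the mammalian SWI/SNF remodeller of chromatin. There was 1 IP library and 1 input library per condition, so no difference between basal and KCl has a replicate check. How many animals contributed to a culture is not given in the sources used here.

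REST is a zinc finger repressor that silences neuronal genes in progenitors and non-neuronal cells, and its level falls as neurons mature. It binds a bipartite DNA element called RE1 and recruits CoREST scaffold proteins, encoded by Rcor1 and Rcor2, which hold a histone demethylase and histone deacetylases together. The Myt1 family works in the opposite sense: Myt1l is expressed in neurons and represses non-neuronal programmes, Myt1 acts in neural progenitors and the oligodendrocyte lineage, and St18 is the remaining paralogue. BRG1 and BRM use ATP to move nucleosomes, and the complex is found at promoters and enhancers in neurons.

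The 250 bases before annotated transcription starts are shown for the starts on which the results turn, because KCl islands met some of these starts and not others. Sequences are from RefSeq on GRCm38.p6 (the build of the islands, mm10), read 5′ to 3′ on the plus strand, which is the gene's strand at all of them. RefSeq windows were matched for 4 of the 6 genes, and starts of Rest and St18 were not analysed here. Capitals mark matches on either strand to the motifs searched: TTCAGCACC and GGACAG, the left and right parts of RE1; AAGTTT, the core bound by Myt1 family zinc fingers; TGANTCA, the AP-1 site; TGACGTCA, the full cyclic AMP response element; and GGGCGG, the GC box. No matches overlapped each other. The first Myt1l window lies inside the broad island at the start of the gene and the second near the right edge of that island. The first Myt1 window belongs to the outer start, which had no island, and the second to an inner start, which had one. The Rcor1 start lies inside an island and the Rcor2 start 7 bp before the edge of one.
Myt1l start at 29528384 (chr12:29528134-29528383, plus strand): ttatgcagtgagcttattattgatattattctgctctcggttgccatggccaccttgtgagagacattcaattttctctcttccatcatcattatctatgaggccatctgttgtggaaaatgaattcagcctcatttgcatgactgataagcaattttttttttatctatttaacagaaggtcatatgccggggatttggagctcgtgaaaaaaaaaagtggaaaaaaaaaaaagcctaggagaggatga
Myt1l start at 29534905 (chr12:29534655-29534904, plus strand): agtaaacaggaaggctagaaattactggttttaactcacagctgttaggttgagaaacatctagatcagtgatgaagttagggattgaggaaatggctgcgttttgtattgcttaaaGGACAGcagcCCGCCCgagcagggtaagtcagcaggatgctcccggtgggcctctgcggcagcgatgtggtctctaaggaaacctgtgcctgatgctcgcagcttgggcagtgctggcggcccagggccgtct
Myt1 outer start at 181763332 (chr2:181763082-181763331, plus strand): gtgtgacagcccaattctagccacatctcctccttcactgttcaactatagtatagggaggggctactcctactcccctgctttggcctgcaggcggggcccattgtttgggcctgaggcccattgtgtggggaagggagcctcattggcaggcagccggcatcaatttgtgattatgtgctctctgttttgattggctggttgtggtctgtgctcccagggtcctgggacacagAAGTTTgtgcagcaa
Myt1 inner start at 181767029 (chr2:181766779-181767028, plus strand): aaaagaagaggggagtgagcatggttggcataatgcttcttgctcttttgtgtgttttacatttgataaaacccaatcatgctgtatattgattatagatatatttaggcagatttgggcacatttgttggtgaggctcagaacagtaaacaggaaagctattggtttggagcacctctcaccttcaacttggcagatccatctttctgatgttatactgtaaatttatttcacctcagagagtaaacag
Rcor1 start at 111039367 (chr12:111039117-111039366, plus strand): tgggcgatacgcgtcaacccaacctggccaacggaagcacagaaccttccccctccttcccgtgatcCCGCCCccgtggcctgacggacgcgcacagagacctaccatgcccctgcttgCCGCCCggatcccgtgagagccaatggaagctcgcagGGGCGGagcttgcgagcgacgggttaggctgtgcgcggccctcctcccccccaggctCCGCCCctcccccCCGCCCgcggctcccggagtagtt
Rcor2 start at 7267394 (chr19:7267144-7267393, plus strand): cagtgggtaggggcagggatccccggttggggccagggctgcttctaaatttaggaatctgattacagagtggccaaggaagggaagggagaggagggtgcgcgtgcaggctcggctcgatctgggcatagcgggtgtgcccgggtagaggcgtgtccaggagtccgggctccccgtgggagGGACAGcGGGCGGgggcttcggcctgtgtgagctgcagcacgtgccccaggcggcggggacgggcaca

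After KCl, 6 of 6 genes had an island in the gene or within 50 kb, against 59.4% of the 21887 protein-coding genes. Because the islands were chosen by this rule, nothing is read from that count. Within 10 kb of the gene body, 5 of 6 genes had a KCl island against 38.9% of all genes, and Rest was the exception. A gene-end island, meaning one no farther than 2 kb from either end of a gene, was called at 3 of 6 (Myt1l, Rcor1 and Rcor2) against 25.2%. The genes were picked with their islands known, so these counts too are a description. Most of the islands lay at the long genes: Myt1l had 11, St18 had 6, Rcor1 had 2, and Rest, Rcor2 and Myt1 had 1 each. In basal neurons 0 of 6 genes had an island within 50 kb, against 2.94% of all genes, and 0 of 6 had a gene-end island, against 0.411%. With so low a background, the lack of basal islands is not a result about these genes. The absence of a call does not show that the protein was absent. In a bulk culture, weak occupancy in all cells and strong occupancy in few cells cannot be told apart.

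The 22 KCl islands held 1731 IP reads and 550 control reads in all, from 26 to 377 IP reads each, and all had control reads. The authors' fold enrichment compares IP with control reads after scaling for the sizes of both libraries. Its median was 2.07 over the 22 islands (range 1.31 to 2.98), against 2.40 over all KCl islands and 1.82 over the 4856 gene-end islands of the KCl list. Of the 22, 8 lay above the median of all KCl islands. Values in square brackets are 95% exact binomial (Clopper-Pearson) intervals that let both read counts vary; they cover counting error only. The interval lay above 1 for 18 of the 22 islands (81.8%), compared with 86.4% of all KCl islands. The 4 exceptions were 2 islands of Myt1l, 1 of St18 and the island of Myt1.

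**Figure D1:**
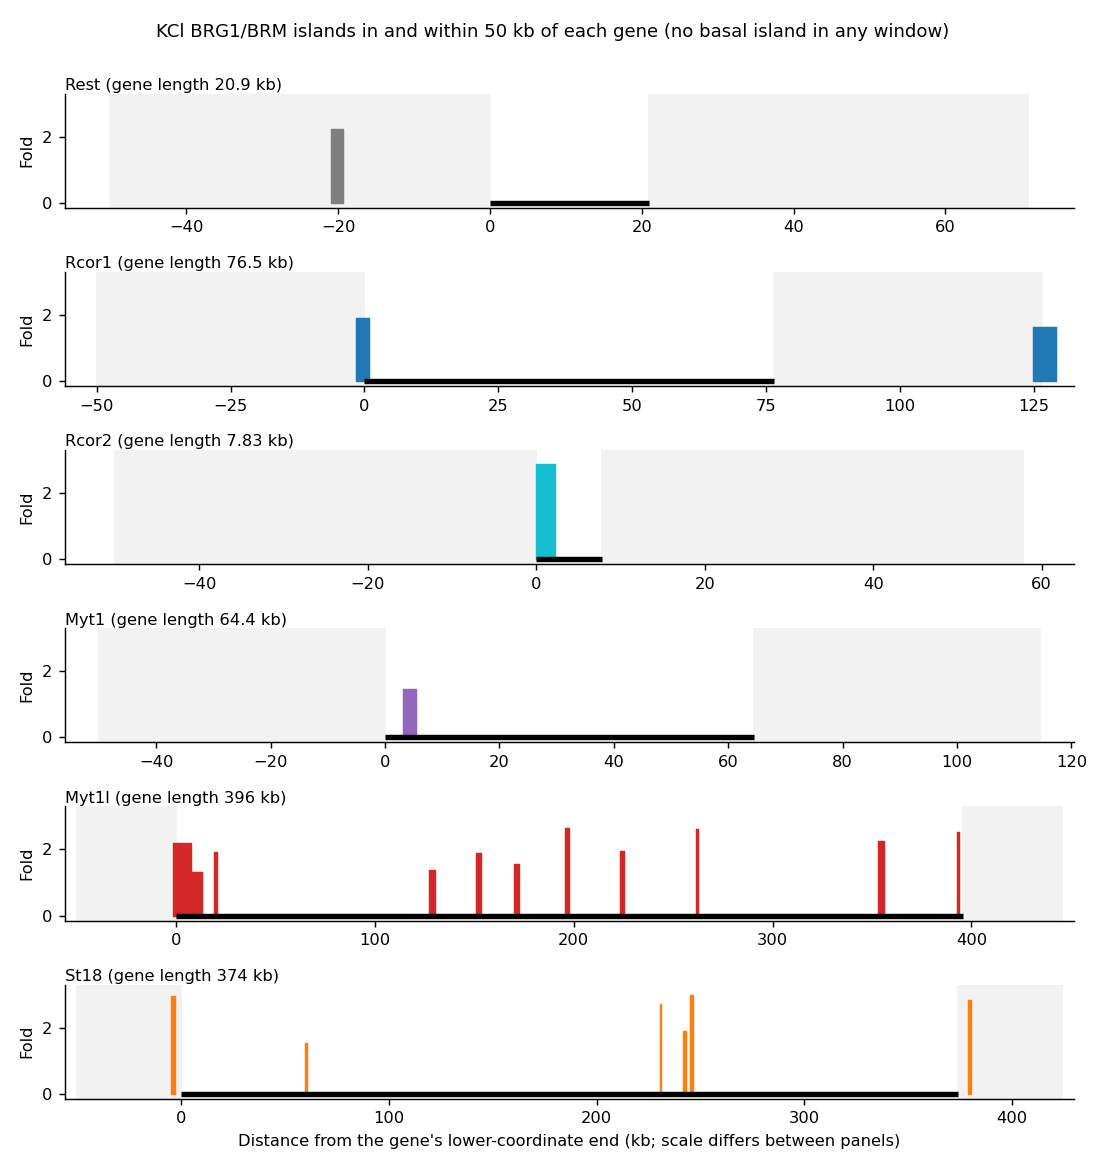
Islands of the KCl list along each of the 6 genes, in kb from the gene end with the lower coordinate. Bar height is fold over control, bar width is island width, black lines are gene bodies and grey zones are the 50 kb to either side. Myt1l carries 11 islands spread over its whole length, whereas Rest has 1, outside the gene.

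Rest (Gene ID 19712; chromosome 5, 77265494 to 77286432; 20.9 kb) had no island in its body or within 10 kb. Its single KCl island lay 19.3 kb from the lower-coordinate end (77244601 to 77246200, 1600 bp), outside any protein-coding gene. It held 46 IP and 13 control reads, a fold of 2.22 [1.18 to 4.48]. The next nearest end of another protein-coding gene was that of Spink2, 28.3 kb away. Of the 7946 genes between 0.5 and 2 times the length of Rest, 26.9% had a KCl island in the body, so an empty body was the common state at this length. The next KCl island beyond the 50 kb limit lay 174 kb from the gene, and the nearest basal island 602 kb away.

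The CoREST genes each had an island at the start. At Rcor1 (Gene ID 217864; chromosome 12, 111039367 to 111115902; 76.5 kb), the island spanned the start (111037801 to 111040200, 2400 bp), with 73 IP and 24 control reads, a fold of 1.91 [1.19 to 3.17]. A second island was counted only because its edge lay 48.3 kb beyond the upper end of Rcor1. It overlapped Traf3, the gene of a signalling adaptor (111164201 to 111168600, 4400 bp, 132 IP and 51 control reads, 1.63-fold [1.17 to 2.29]). At Rcor2 (Gene ID 104383; chromosome 19, 7267394 to 7275225; 7.83 kb), the only island began 7 bp inside the gene (7267401 to 7269600, 2200 bp) and covered 28.1% of it. It held 69 IP and 15 control reads, a fold of 2.89 [1.64 to 5.44]. That fold exceeded those of 92.2% of the gene-end islands in KCl and 64.5% of all KCl islands. The fold at the Rcor1 start exceeded 58.0% of the gene-end islands and 29.0% of all KCl islands. The difference in fold between the CoREST genes was not tested. Just beyond the 50 kb limit, an island 60.6 kb from Rcor2 was 2.30-fold enriched [1.08 to 5.47]. The nearest basal islands lay 2599 kb from Rcor1 and 1418 kb from Rcor2.

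Myt1l (Gene ID 17933; chromosome 12, 29527590 to 29923216; 396 kb) had the widest island of the set. It covered the gene start from 1.59 kb before the gene to 7.41 kb within it (29526001 to 29535000, 9000 bp). It held 377 IP and 108 control reads, a fold of 2.19 [1.77 to 2.74]. Only 60 of the 20966 KCl islands were wider, and 25 of the 4856 at gene ends. Its fold exceeded those of 75.1% of the gene-end islands but only 41.7% of all KCl islands. Its deposited p-value (5.66e-42) ranked 339 in the list. RefSeq lists 5 starts of Myt1l in these windows, and the island covered 4 of them. The fifth, at 29535222, lay 222 bp past its right edge, in a gap of 800 bp before the next island; the caller joined windows across gaps of up to 600 bp. The next island (29535801 to 29540400, 4600 bp) had 119 IP and 57 control reads, and its fold of 1.31 [0.948 to 1.83] was the lowest of the 22. These first 2 islands held 46.3% of the 1072 IP reads of the Myt1l islands and 42.8% of their summed width.

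The other 9 Myt1l islands were narrower, 1000 to 2800 bp, and spread across the gene. Gaps between neighbouring islands ran from 0.8 kb to 107 kb, with a median of 24.6 kb, and the widest lay between the third and the fourth island. By midpoint, 7 of the 11 islands lay nearer to the start of the gene and 4 nearer to its far end. The highest folds belonged to islands in the middle and at the far end of the gene. One 196 kb from the start (29723201 to 29725000) held 72 IP and 17 control reads, a fold of 2.66 [1.55 to 4.81]. Another 261 kb from the start (29789001 to 29790200) held 67 IP and 16 control reads, a fold of 2.63 [1.51 to 4.86], and had the highest IP density of the Myt1l islands, 55.8 reads per kb. The third (29920201 to 29921200) held 40 IP and 10 control reads, a fold of 2.51 [1.23 to 5.63]. It ended 2.02 kb before the end of the gene, just outside the 2 kb window. The lowest folds after that of the second island were 1.39 [0.881 to 2.23] at 127 kb (29655001 to 29657600; 64 IP and 29 control reads) and 1.56 [1.04 to 2.38] at 170 kb (29697401 to 29700000; 87 IP and 35 control reads). Folds of the remaining 4 ran from 1.88 to 2.24. Differences in fold between islands of this gene were not tested. No other protein-coding gene overlapped any of the 11. Exons and introns were not told apart, since transcript models were not used here. The nearest basal island lay 4575 kb away.

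**Figure D2:**
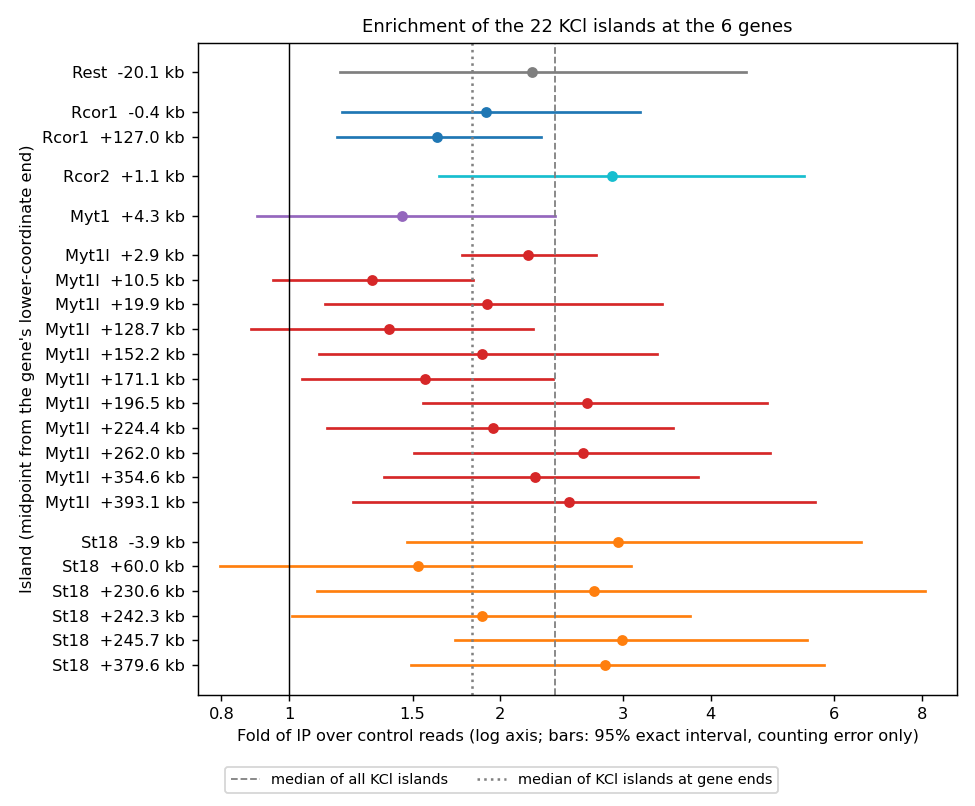
Fold of IP over control reads (log axis) for each of the 22 KCl islands, with 95% exact intervals for counting error, labelled by gene and by the distance of the midpoint from the lower-coordinate gene end. The broken line is the median of all KCl islands (2.40) and the dotted line that of KCl islands at gene ends (1.82); folds run from 1.31 to 2.98.

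The paralogue Myt1 (Gene ID 17932; chromosome 2, 181763332 to 181827775; 64.4 kb) had 1 KCl island (181766401 to 181768800, 2400 bp). It held 60 IP and 26 control reads, a fold of 1.45 [0.901 to 2.39], so its excess over control was not detectable once both counts could vary. The island did not reach the outer start. It began 3.07 kb inside the gene and covered the inner start at 181767029, 3.70 kb from the outer one. Another start, at 181796307, lay 27507 bp from the nearest island. Of all basal islands near the 6 genes, the closest was 89.6 kb from Myt1 (181917401 to 181919400; 207 IP and 175 control reads, 1.34-fold [1.09 to 1.65]).

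St18 (Gene ID 240690; chromosome 1, 6487231 to 6860940; 374 kb) is nearly as long as Myt1l and had 6 KCl islands, 4 of them in the body and none within 2 kb of an end. The pair outside the body flanked the gene. One lay 3.03 kb from the lower-coordinate end (6482401 to 6484200, 47 IP and 10 control reads, 2.95-fold [1.47 to 6.55]). The other lay 5.06 kb beyond the upper end (6866001 to 6867600, 54 IP and 12 control reads, 2.83-fold [1.49 to 5.80]). Inside the gene, 3 islands gathered between 230 and 247 kb from the lower-coordinate end. The first of these was 400 bp wide (6717601 to 6718000, 26 IP and 6 control reads, 2.72-fold [1.10 to 8.09]). The second (6729001 to 6730000) held 42 IP and 14 control reads, 1.88-fold [1.01 to 3.74]. The third (6732001 to 6733800) held 76 IP and 16 control reads, and its fold of 2.98 [1.72 to 5.48] was the highest of the 22 islands. The fourth body island lay apart from these (6546801 to 6547600, 34 IP and 14 control reads), and its interval included 1 (1.53-fold [0.797 to 3.08]). St18 islands had a median width of 1300 bp, compared with 2400 bp for Myt1l. The median fold was 2.77 over the 6 islands of St18 and 1.95 over the 11 of Myt1l, a difference that was not tested. The next KCl island outside the limit lay 75.3 kb from St18, and the nearest basal island 3367 kb away.

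**Figure D3:**
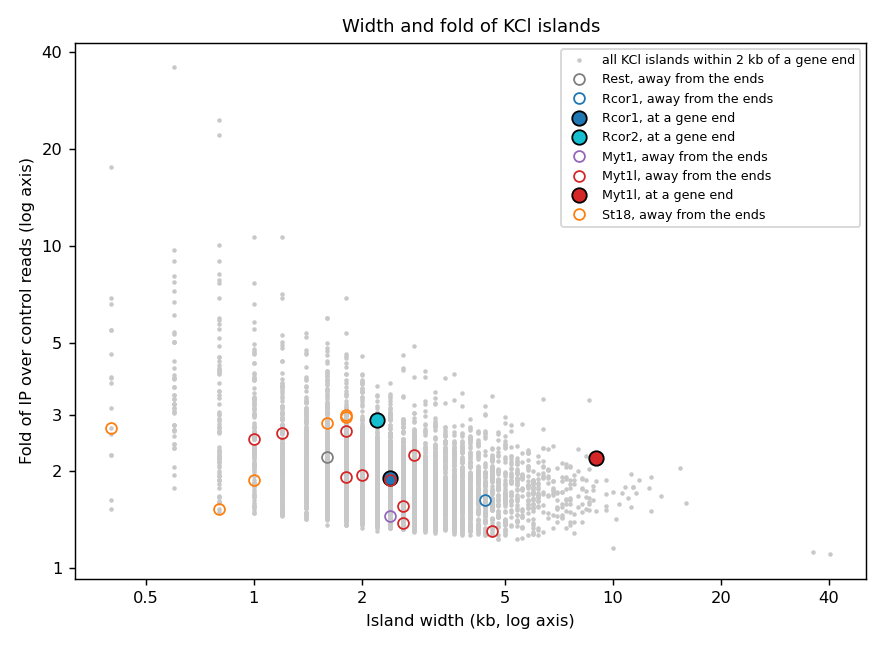
Width (kb, log axis) and fold (log axis) of KCl islands. Grey points are the 4856 islands within 2 kb of any gene end, filled circles are the islands at the ends of Myt1l, Rcor1 and Rcor2, and open circles are the other islands of the 6 genes; the Myt1l island of 9000 bp lies at the right, while the rest are 4600 bp wide or less.

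Since long genes hold more islands, Myt1l and St18 were each set beside the protein-coding genes of 0.5 to 2 times their length. Among the 901 genes of that range for Myt1l, itself included, the median was 3 KCl islands in the body (interquartile range 2 to 5), and 94.7% had fewer than the 11 of Myt1l. Per 100 kb, Myt1l had 2.78 islands, where the median was 0.959. Islands covered 7.64% of its body, where the median was 1.76% and 98.1% of the genes had a lower share. An island at a gene end as wide as that of Myt1l was present at 5 of the 901 genes, Myt1l among them, while 48.4% had an island of any width there. St18 lay near the middle of its own range of 976 genes. Its 4 body islands compare with a median of 3 and exceed the count of 55.6% of them. It had 1.07 islands per 100 kb (median 0.972), and 1.07% of its body was covered (median 1.76%). Summed over the body islands, Myt1l had 1072 IP and 349 control reads in 31.8 kb of islands, 1.93-fold [1.71 to 2.18], and St18 had 178 IP and 50 control reads in 4.0 kb, 2.24-fold [1.63 to 3.12]. Within 50 kb, where Myt1l had 11 islands and St18 had 6, the gap in number varied with the cut-off. With at least 2-fold enrichment, 5 and 4 remained, and the 4 of St18 included the pair outside its body (2.95-fold and 2.83-fold). With an FDR of at most 1e-05, 8 remained at Myt1l and 4 at St18. Of genes with lengths like those of Myt1, Rcor1 and Rcor2, 47.7%, 51.9% and 19.1% had a body island, beside the 1 island that each of these genes had. These positions describe 1 library, and the genes were picked with their islands known.

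**Figure D4:**
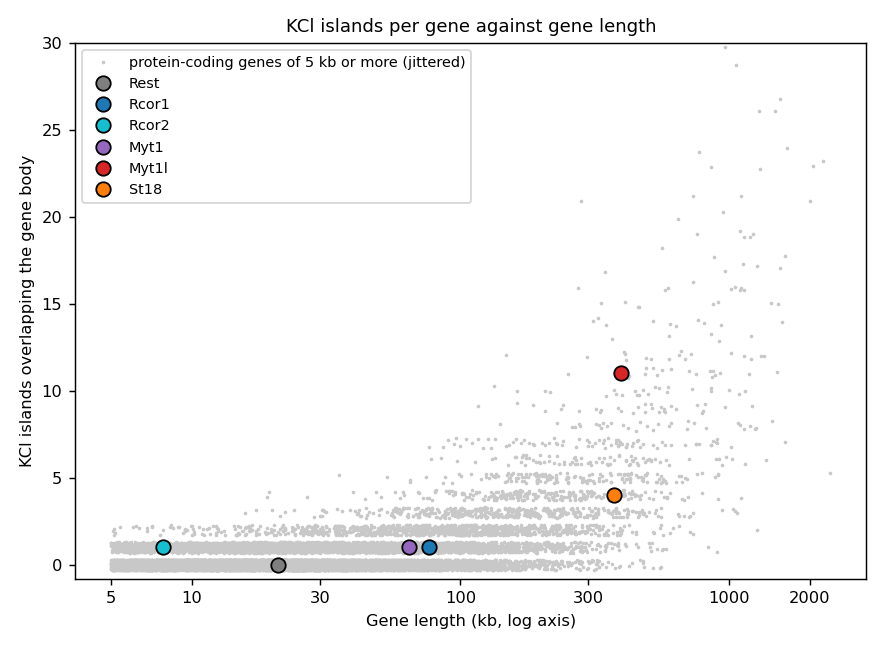
Number of KCl islands overlapping the gene body against gene length (log axis) for protein-coding genes of 5 kb or more, with grey points jittered vertically and 3 genes with over 30 islands not drawn. Myt1l, with 11 islands, lies above most genes of its length; St18, with 4, lies among them; Rest has 0.

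The 5 genes most like Myt1l were found among 900 genes of 0.5 to 2 times its length. Likeness was the distance over KCl and basal islands per 100 kb of body, the share of the body covered in KCl, and the width of the widest KCl island at a gene end, each scaled by its SD. All of it rests on 1 library per condition. The nearest was Kcnh7, which encodes a voltage-gated potassium channel. It had 11 islands in 491 kb, 5.93% of the body covered and an end island of 8600 bp (distance 0.968). Chl1, the gene of an L1-family adhesion protein, followed with 5 islands in 222 kb and an end island of 7600 bp (distance 1.26). Grm3, a metabotropic glutamate receptor gene, had 7 islands in 240 kb and an end island of 6600 bp (distance 1.26). Cacna2d1, which encodes an auxiliary calcium channel subunit, had 9 islands in 440 kb and an end island of 11400 bp (distance 1.57). Cracd had 5 islands in 216 kb and an end island of 6000 bp (distance 1.73). St18 ranked 597 of the 900 (distance 5.54).

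Annotated starts gave a finer view than gene ends. KCl islands contained 6 of the 10 RefSeq starts of these genes, namely 4 of 5 at Myt1l, 1 of 3 at Myt1 and that of Rcor1, where 21.9% of the 21263 starts of protein-coding genes lay inside a KCl island. Starts of one gene lie close together and are not independent. Base composition, which the calls did not use, differed among the covered starts. The 250 bases before a start inside a KCl island had a median GC content of 64.0% (interquartile range 56.8% to 70.4%), against 53.2% for starts outside. The covered Rcor1 start had 70.4% GC. The Rcor2 start, 7 bp outside its island and so not among the covered ones, had 67.6%. The 4 covered Myt1l starts had 36.8%, 59.2%, 43.6% and 53.2%, in order along the gene, and the covered Myt1 start had 38%. The first Myt1l window was thus poorer in GC than all but 0.558% of starts inside KCl islands, and the Myt1 window poorer than all but 1.07%. The Myt1 window held no CpG, and the ratio of observed to expected CpG in the 4 Myt1l windows ran from 0.230 to 0.531, where starts inside KCl islands had a median of 0.791. At the uncovered Myt1l start at 29535222 this ratio was 0.974. Control reads were also present at each of these islands, 12 per kb in the broad Myt1l island, 10.8 at Myt1, 10 at the Rcor1 start and 6.82 at Rcor2. The part of base composition in these calls was not tested.

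The motif matches split the same starts. Rcor1 had 5 GC boxes in its 250 bases and Rcor2 had 1, and GC boxes occurred in 42.6% of all 21263 windows and in 66.4% of those whose start lay in a KCl island. Myt1l had a GC box in 1 of its 5 windows, that of the start at 29534905, 123 bases before it. The same window held the right RE1 part GGACAG 133 bases before the start. Rcor2 held GGACAG 68 bases before its start, and Myt1 held it 72 bases before the uncovered start at 181796307. This short motif occurred in 18.9% of all windows and in 18.6% of those whose start lay in a KCl island. The left RE1 part TTCAGCACC occurred in 0.329% of all windows and in none of the 10 windows of these genes. The Myt1 family core AAGTTT occurred in 2 windows, both of Myt1 itself, at the uncovered outer start (15 bases before it) and at the uncovered start at 181796307 (138 bases before it), where 12.1% of all windows had it. The AP-1 motif (6.13% of all windows) and the full cyclic AMP response element (1.92%) had no match in the 10 windows. A match describes letters in the window and is not a binding site.

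The partners and presumed targets of these repressors were counted from lists, which were not checked against binding data here. In KCl, 10 of 19 REST corepressor partners had a gene-end island (52.6%, against 25.2% of all genes) and 13 of 19 had one in the body or within 10 kb (against 38.9%). By fold at a gene end, the leading ones were the deacetylase gene Hdac2 (61 IP and 15 control reads, 2.55-fold [1.43 to 4.84]) and the scaffold gene Sin3a (2.32-fold [1.24 to 4.67]). The histone methyltransferase gene Ehmt1 (2.23-fold [1.31 to 4.0]) and the small phosphatase gene Ctdsp1 (2.18-fold [1.21 to 4.16]) followed. Away from the ends, folds above that of Hdac2 were found at Gse1 (3.49-fold [1.70 to 8.07]), Phf21a (2.84-fold [1.97 to 4.20]) and Ctdspl (2.60-fold [1.62 to 4.35]). The third CoREST gene, Rcor3, had an island at an end as well (83 IP and 33 control reads, 1.58-fold [1.04 to 2.44]); it was picked for its kinship, after its value was seen. In basal neurons, 2 of 19 partners had an island in the body or within 10 kb (10.5%, against 1.68% of all genes). At a gene end, 1 of 19 had a basal island (5.26%, against 0.411%). These shares were not tested. Phf21a, which encodes a reader of unmethylated histone H3, had its basal island in the body (39 IP and 24 control reads, 1.85-fold [1.08 to 3.21]).

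Neuronal genes with a known RE1 element carried a gene-end island after KCl in 19 of 24 cases (79.2%, against 25.2% of all genes). A basal island within 50 kb was called at 0 of 24, which is near the 2.94% of all genes. The largest folds were those of Scg2, a granin gene (217 IP and 35 control reads, 3.89-fold [2.72 to 5.74]), Syt4, a synaptotagmin gene (211 IP and 49 control reads, 2.70-fold [1.97 to 3.77]), the sodium channel gene Scn2a (2.51-fold [1.52 to 4.33]) and the nicotinic receptor gene Chrnb2 (2.40-fold [1.21 to 5.16]). Of 12 genes listed for the progenitor and Notch programme, 10 had a KCl island at an end (83.3%, against 25.2% of all genes). The list was meant to hold genes repressed by Myt1 family factors, but repression of each gene was not examined here. At 0 of 12 with a basal island within 50 kb, these genes too were near the background of 2.94%. They were led by Hes1, the Notch effector (2.20-fold [1.29 to 3.94]), Id1, an inhibitor of basic helix-loop-helix factors (2.06-fold [1.20 to 3.71]), the progenitor factor gene Sox2 (2.01-fold [1.32 to 3.14]) and Yap1, a coactivator of the Hippo pathway (1.98-fold [1.33 to 3.00]). The 2 without a KCl island at an end were Hes5 and Rbpj, named after their values were seen. Rbpj did have 2 KCl islands in its body or within 10 kb, the higher at 3.39-fold [1.29 to 11.3]. Of 4 factors that act with Myt1l in making neurons, Pou3f2 lay under an island of 16000 bp (406 IP and 160 control reads, 1.59-fold [1.32 to 1.93]) and Neurog2 under a weaker one (1.52-fold [0.988 to 2.39]). Per gene, the median number of KCl islands inside it or up to 10 kb away was 1 for REST partners, 1 for RE1 genes, 1.5 for progenitor genes and 0.5 for Myt1l partners, against 0 over all genes. Gene-end islands were thus called after KCl at most of the listed RE1 genes and at most of the listed progenitor genes. A like share was seen at cortical neuron markers, 7 of 9 (77.8%), with Tubb3 on both that list and the RE1 list. Whether the shares are tied to REST or Myt1 family targets was not tested, and genes matched for base composition were not compared.

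**Figure D5:**
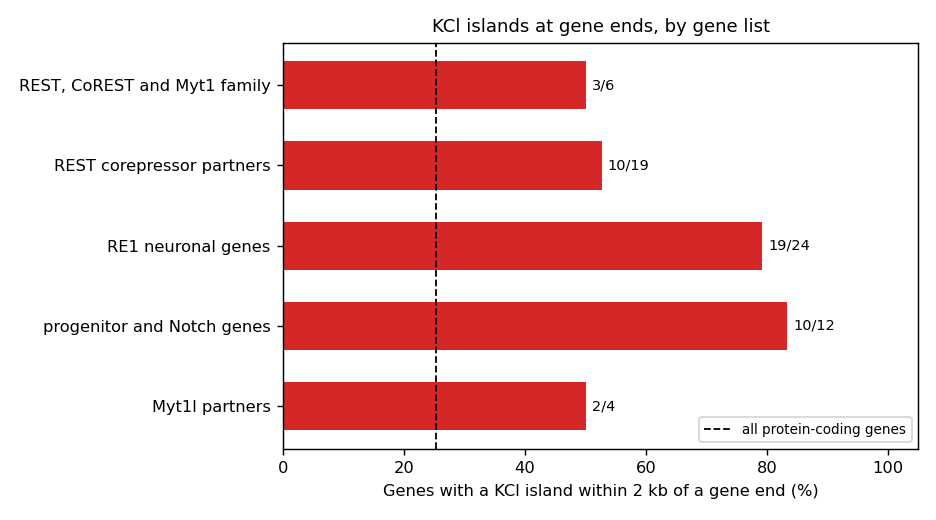
Share of genes with a gene-end island (2 kb) in the KCl list, with the counts beside each bar; the broken line gives the share over all protein-coding genes, 25.2%. Each of the 5 lists lies above that line, from 3 of 6 for the repressor genes to 10 of 12 for progenitor and Notch genes. The repressor genes were picked with their islands known, the lists are short, and no share was tested against the line.

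Facts of the whole libraries bear on these values. The KCl list is 20966 islands long and the basal list 711, and the sources used here do not state their total read depths, so presence in KCl and absence in basal neurons is a statement about calls. When the KCl list was cut to the 711 islands with the lowest deposited p-values, 1 of the 22 islands remained, the broad one at Myt1l. The cell type was checked against marker genes. Among 9 cortical neuron markers, 7 had a gene-end island after KCl, compared with 2 of 5 astrocyte markers, 2 of 5 oligodendrocyte lineage markers, 0 of 5 microglia markers, 1 of 5 liver and muscle markers and 25.2% of all genes. Within 50 kb, a KCl island was called at 9 of 9 cortical neuron markers, 4 of 5 astrocyte, 5 of 5 oligodendrocyte lineage, 3 of 5 microglia and 1 of 5 liver and muscle markers, against 59.4% of all genes. Islands mark occupancy and not expression, so the makeup of the culture was not measured here.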

How the data were processed

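BRG1/BRM ChIP-seq of 4 samples was considered, 2 IP and 2 input libraries, grouped by title; island lists of the 2 IP samples were analysed. Per the submitters' processing notes, reads were aligned with BWA to mm10 (GRCm38) and islands called with SICER 1.0. Per the file names, the window was 200 bp, the gap 600 bp and the FDR 0.01; each list came from 1 IP library with a control. The authors deposited, per island, the count of IP and of control reads, not normalized, a p-value with its FDR, and the fold, a ratio of the reads scaled by a constant for each library (0.880 basal, 1.59 KCl, recovered from the lists). Which input served as control, and whether duplicate reads were removed, is not given in the sources used here.

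Positions were made 1-based. Genes were the 21887 protein-coding genes of RefSeq GRCm38.p6 on chromosomes 1 to 19, X and Y. Overlap required 1 bp. Fold intervals came from the exact binomial interval of IP reads among IP and control reads. No control count was 0 among the 22 islands, so the floor of 3 control reads set for such islands was not needed. The code (Python 3.11.15, pandas 2.3.3, scipy 1.17.1, matplotlib 3.10.9) was tested on simulated islands. With 1 library per condition no test was made. Motifs were counted on both strands in the 250 bases before each start; the planned comparison of proteins was not run. The genes and lists were chosen with earlier results of these data known. All members were named; where a member had over 6 islands in a list, those at gene ends, the widest, and the 3 highest and 3 lowest by fold were named. Of each list, up to 4 genes with the largest KCl fold at an end and those with basal islands were named. Some genes that this rule selects are not reported here.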

Additional observations from a re-analysis of the deposited data

How the results depend on the processing

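Leaving out the 1% of islands with the highest control density kept 22 KCl islands, 11 in Myt1l and 3 genes with an end island. Requiring at least 2-fold enrichment left 11 of the 22 KCl islands and 5 of the 11 in Myt1l, beside 4 of 6 at St18. An FDR of at most 1e-05 left 16 and 8, with 4 at St18 and 0 at Myt1. Shortening the KCl list to 711 islands by p left 1 island, in Myt1l, and so 1 gene with an island at an end and 1 island in the Myt1l body. Widening the gene end window to 5 kb raised the genes with an end island from 3 to 5, through Myt1 and St18. Widening the 50 kb limit to 100 kb, chosen after seeing the data, gave 24 KCl islands and 1 basal island. With 0 basal islands within 50 kb, stricter settings could not change that count or its overlap with KCl islands, so those alternatives say nothing about stability. Depth limits the folds: with 26 to 377 IP reads per island, the intervals of single folds are wide. No paired analysis was possible because each condition had 1 library.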
